A study of Mus musculus with 2 samples.

Results

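Among the cells of the fetal mouse femur at E18.5, 1679 Epyc-high growth plate chondrocytes were found in 12356 cells that passed the quality gates, 772 of 5736 in a wild-type library and 907 of 6620 in a library from Bmx-CreER Wls embryos. The members were chosen by measured values alone: at least 2 UMIs (unique molecular identifiers, each counting 1 captured transcript) of Epyc, at least 20 Col2a1 UMIs per 10000, under 20 Col10a1 UMIs per 10000, no Prg4 UMI, and a sum of at most 2 UMIs over the mitotic genes Top2a, Cenpf and Prc1. A kept cell had 201 to 4999 detected genes and a mitochondrial share under 30%. The members made up 13.5% of kept cells in the wild-type library (exact 95% interval 12.6 to 14.4) and 13.7% in the Bmx-CreER Wls library (12.9 to 14.6). Of the cells that passed the Col2a1 gate alone, they were 28.9% of 2670 and 20.6% of 4395. The levels of the 7 genes used in the rule are therefore a description, and so is every contrast between the members and cells that the same rule sent elsewhere.

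Both libraries were made from fetuses at E18.5, by crushing the bone, digesting it with collagenase and depleting lineage-committed haematopoietic cells with magnetic beads. The stroma of the bone, cartilage included, was thereby retained. The paper used C57BL/6 mice for wild-type marrow and kept its mutants on a predominantly C57BL/6 background. One library was wild type. The other carried Bmx-CreER, a tamoxifen-controlled Cre recombinase driven by the Bmx promoter in arterial endothelial cells, together with floxed Wls, which encodes Wntless, the carrier that Wnt ligands need for secretion. The chondrocytes are not the cells in which this Cre is meant to act, and the number of embryos pooled per library, the litter and any tamoxifen given to the wild type were not stated in the sources used here. Each genotype is represented by 1 library, so every value below compares 2 libraries and not 2 genotypes, no p-value is given, and cells are not counted as replicates. Intervals cover counting error only. Paired values are given for the wild-type library first and the Bmx-CreER Wls library second.

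The libraries held 22708005 and 24704991 UMIs over 5998 and 6825 barcodes, and kept cells had medians of 3128 and 3067 UMIs. The members had medians of 3455.5 and 3263 UMIs and of 1461 and 1380 genes, with mitochondrial shares of 3.97% and 3.42%, so they were about equally deep in both libraries. The 2 libraries shared 49 barcodes, of which 1 belonged to a member in both libraries. Wls itself was low in the members, at 46.1 and 54.1 CPM (counts per 1000000 UMIs, the UMIs of a gene summed over the cells of a group and scaled to that total), a ratio between the libraries of 1.17 (0.939 to 1.47). It was higher in the Epyc-zero chondrocytes described below, at 179 and 133 CPM.

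The growth plate is the cartilage at the end of a long bone in which chondrocytes move from a resting zone into columns of flat, dividing cells and then enlarge as prehypertrophic and hypertrophic cells before bone replaces them. Indian hedgehog (Ihh), made by prehypertrophic cells, and the PTH-related peptide (Pthlh), made near the bone end, set the pace of maturation through the receptors Ptch1 and Pth1r. Epiphycan, the product of Epyc, is a small leucine-rich proteoglycan of growth plate cartilage, matrilin-1 (Matn1) is a filament-forming cartilage protein, C1qtnf3 encodes a secreted protein of the C1q and TNF-related family, Pou3f3 a POU-domain transcription factor, and Col9a1 a chain of collagen IX, which coats the collagen II fibril.

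In the mouse genome (mm10, the GRCm38 assembly) Epyc lies on the plus strand at chr10:97644068-97682454, Matn1 at chr4:130944385-130955475, C1qtnf3 at chr15:10952332-10980150, Pou3f3 at chr1:42695768-42703176 and Col9a1 at chr1:24177610-24252684, all protein coding. The 250 bases before the annotated start are shown for the rule's gene Epyc and for the 2 markers that stood apart most from Epyc-zero chondrocytes, from RefSeq on GRCm38.p6, at chr10:97643818-97644067, chr4:130944135-130944384 and chr15:10952082-10952331, each on the plus strand. Capitals mark any match, on either strand, to ACAAAG or ACAATG, the letters bound by SOX proteins, or to TATAAA, the letters of a TATA box.
Epyc: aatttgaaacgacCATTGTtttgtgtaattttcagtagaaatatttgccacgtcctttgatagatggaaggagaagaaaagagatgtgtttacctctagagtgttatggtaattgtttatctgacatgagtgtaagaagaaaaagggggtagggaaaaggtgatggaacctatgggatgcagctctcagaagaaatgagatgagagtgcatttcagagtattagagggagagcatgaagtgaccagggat
Matn1: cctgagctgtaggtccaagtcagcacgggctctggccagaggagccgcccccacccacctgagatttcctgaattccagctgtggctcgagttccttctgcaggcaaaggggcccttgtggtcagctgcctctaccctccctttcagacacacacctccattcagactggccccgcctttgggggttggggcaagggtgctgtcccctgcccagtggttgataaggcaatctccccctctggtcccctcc
C1qtnf3: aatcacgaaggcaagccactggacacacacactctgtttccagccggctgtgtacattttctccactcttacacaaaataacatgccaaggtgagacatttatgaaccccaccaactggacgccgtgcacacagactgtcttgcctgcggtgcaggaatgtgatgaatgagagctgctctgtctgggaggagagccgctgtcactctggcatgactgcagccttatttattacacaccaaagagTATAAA
The Epyc window held 1 match, to ACAATG on the minus strand (CATTGT as printed), 237 to 232 bases before the start. The C1qtnf3 window held TATAAA in its last 6 bases, and the Matn1 window, with 62.0% G and C against 39.2% for Epyc and 49.2% for C1qtnf3, held none of these letters. Over 32851 windows of 250 bases before annotated mouse starts, ACAAAG occurred in 16.5%, ACAATG in 10.7% and TATAAA in 12.4%, with a median G and C content of 52.4%, so such matches are common and describe the letters only.

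Of the 5 genes that the label rests on, Epyc was fixed by the rule. The others were present in the members and stood higher there than in Epyc-zero chondrocytes. The Epyc-zero chondrocytes (425 and 1054 cells) passed the same gates with no Epyc UMI. Epyc, selected on, stood at 3277 and 2899 CPM, with a median of 11 and 9 UMIs per cell and a maximum of 51 and 53. Matn1 stood at 13431 and 13210.3 CPM in the members against 1238 and 1891 in Epyc-zero chondrocytes, a ratio of 10.8 (10.3 to 11.5) and 6.99 (6.79 to 7.19). C1qtnf3 stood at 2738 and 2201 against 268 and 334, a ratio of 10.2 (9.09 to 11.6) and 6.58 (6.15 to 7.05). For both genes the intervals of the members and of the Epyc-zero chondrocytes lay far apart in either library.

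Pou3f3, at 89.0 and 131 CPM against 23.6 and 29.3, had a ratio of 3.78 (2.51 to 5.94) and 4.46 (3.53 to 5.70) and was seen in 27.1 and 35.9 percent of members. Col9a1, at 18754 and 18325 against 6992 and 7788, had a ratio of 2.68 (2.62 to 2.75) and 2.35 (2.32 to 2.39). The same 2 genes differed from one another in how many cells held them, since Col9a1 was seen in 100% and 99.9% of members. Cells with 5 or more UMIs of endothelial genes gave the background of free RNA: in the wild-type library (296 cells, median 2234 UMIs) 0.676% held an Epyc UMI, 3.72% Matn1, 2.03% C1qtnf3 and 5.74% Col9a1, and 0 of 296 held Pou3f3. In the Bmx-CreER Wls library (206 cells, median 2597 UMIs) 2.91% held Matn1 and 7.28% Col9a1, while Epyc, C1qtnf3 and Pou3f3 were at 0. The shares in the members were far above these, and Matn1, in 42.4% and 52.6% of Epyc-zero chondrocytes, was also above them there. Thinned to 2000 UMIs per cell, which left out 94 and 108 members, Matn1 was still seen in 99.3% and 99.4% of members and Pou3f3 in 15.3% and 23.2%. The reads of Epyc may include those of Gm10754, which shares 1041 exon bases with it on the other strand, because the use of strand in counting was not given in the sources used here.

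**Figure D1:**
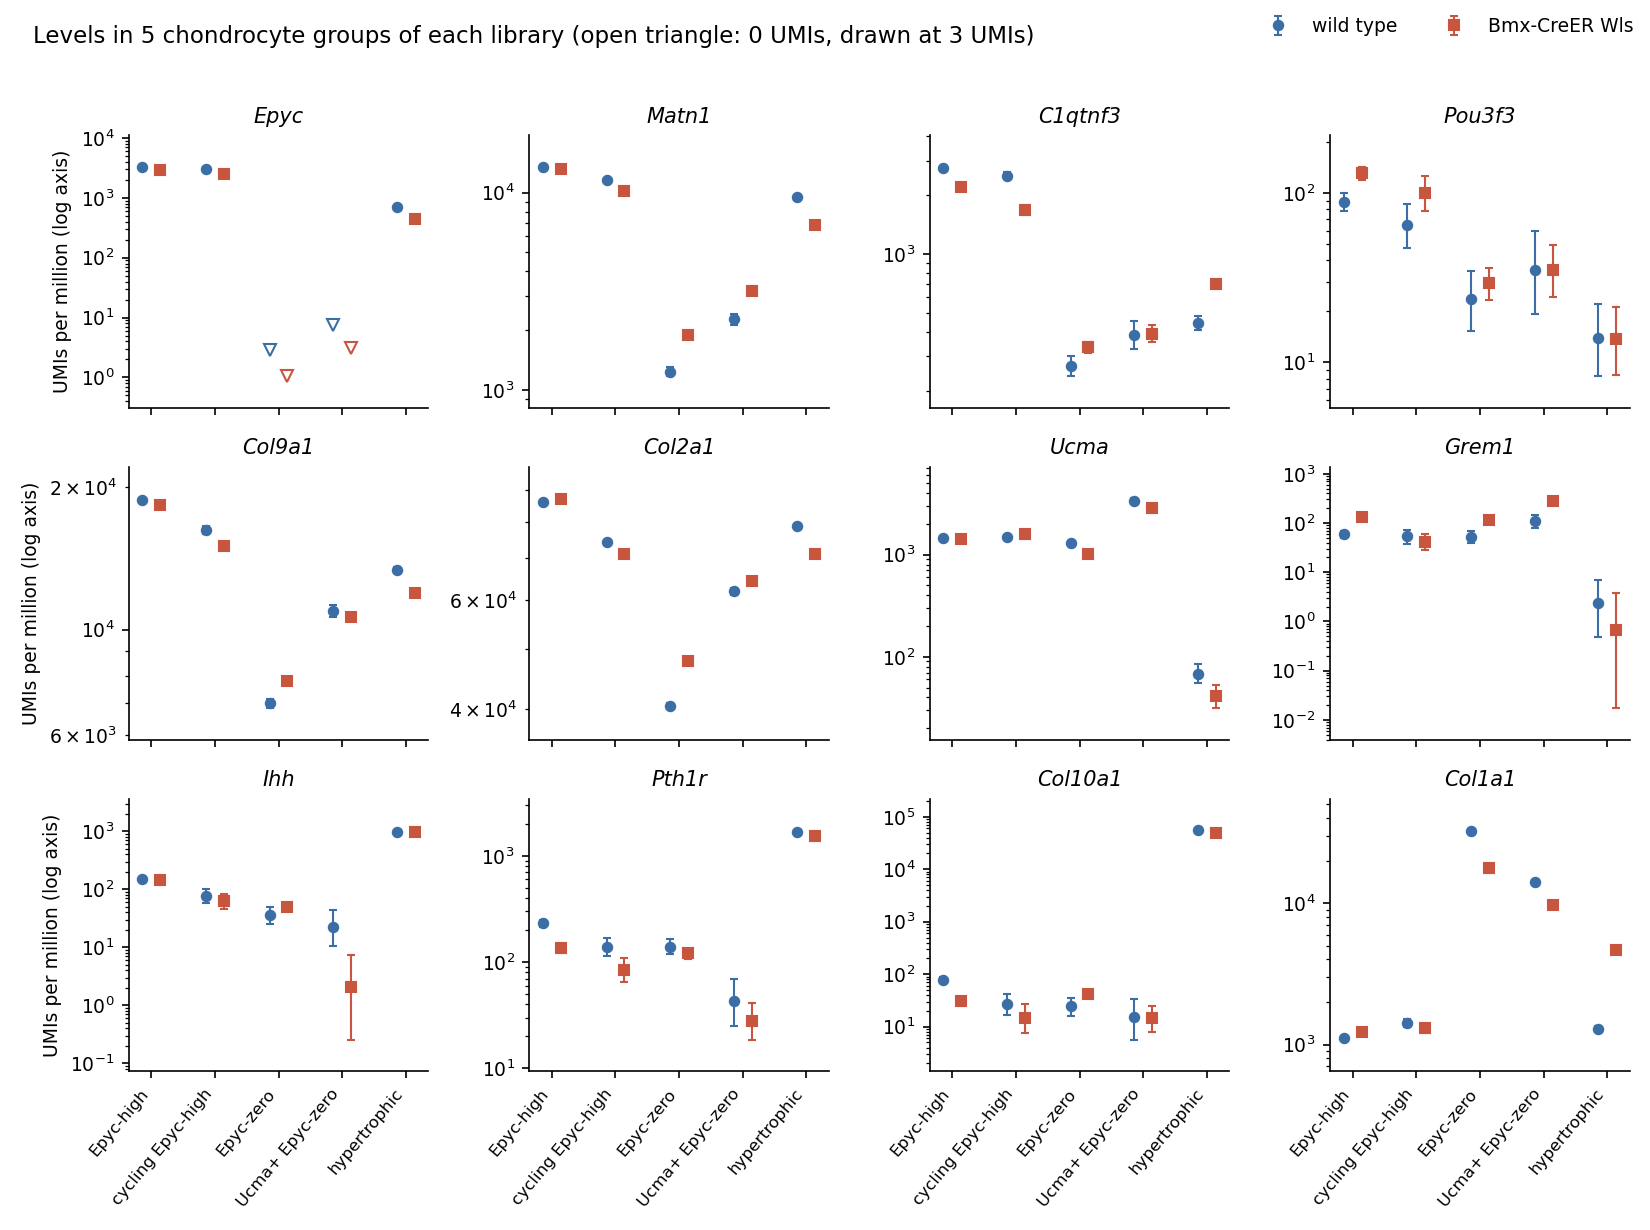
CPM (log axis) of 12 genes in the members and 4 other groups of chondrocytes, in the wild-type and the Bmx-CreER Wls library, with exact Poisson 95% intervals as bars and open triangles at the level of 3 UMIs where a group held none. Matn1, C1qtnf3 and Pou3f3 sit higher in the members than in Epyc-zero, Ucma-positive Epyc-zero and hypertrophic chondrocytes of both libraries. Epyc does too, which the rule fixes for the Epyc-zero groups. Ihh sits highest in hypertrophic chondrocytes, and so does Col10a1, on which they were gated.

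Cells at the edges of the rule graded into one another. Members with exactly 2 Epyc UMIs (35 and 88 cells) held Matn1 at 7219 and 7569.6 CPM, cells with 1 Epyc UMI, just outside the rule (73 and 134 cells), at 5219 and 5543, and Epyc-zero chondrocytes at 1238 and 1891. Col1a1, the bone and fibrous tissue collagen, ran the other way in the wild-type library, at 3125, 14577 and 32459.6 CPM in the same order, and stood at 5007, 4719 and 17807 in the Bmx-CreER Wls library. At the Col10a1 gate, members with 10 to under 20 Col10a1 UMIs per 10000 (12 and 3 cells) held Ihh at 854 and 691 CPM, and cells with 20 to under 40 and at least 2 Epyc UMIs (6 and 3 cells) at 878 and 1126. At the Prg4 gate, 16 and 24 cells with 1 Prg4 UMI but the other gates met were left out, and they held Epyc at 3255 and 1931 CPM. The mitotic gate parted 17 and 22 members with a sum of 2 from 18 and 13 cells with a sum of 3, whose Epyc levels were 2787 and 2413 against 2751 and 3107 CPM.

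Cartilage collagens were among the genes with the most UMIs in the members. Col2a1, the chain of collagen II that the rule used, took 8.62% and 8.71% of their UMIs, the imprinted RNA H19 took 3.15% and 3.23%, and Col9a1 took 1.88% and 1.83%. The 7 cartilage collagens of the list together took 14.8% and 15.03% of the UMIs, and the 24 other cartilage matrix genes 4.75% and 4.67%. The 10 genes with most UMIs took 22.0% and 22.3%. Aggrecan (Acan), the large proteoglycan of cartilage, stood at 7682 and 8133 CPM, chondromodulin (Cnmd) at 5031 and 4752, and the link protein Hapln1 at 6225 and 4739. Sox9, the transcription factor that drives chondrocyte genes, was at 2296 and 2318 CPM and was seen in 98.2 and 98.7 percent of members. Its partners Sox5 and Sox6 were at 208 and 235 and at 129 and 97.9 CPM. Igf2, the fetal growth factor, took 1.54% and 1.81% of the UMIs, and Cdkn1c, a brake on the cell cycle, stood at 3228 and 3091 CPM.

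Compared with Epyc-zero chondrocytes, the members held more of 5 of 6 cartilage collagens, 7 of 21 other cartilage matrix genes and 5 of 21 genes that make chondroitin sulfate, and less of all 10 other collagens tested and of 8 of 10 genes of the superficial zone and joint. The call for the cartilage collagens was lost without cells rich in Col1a1. A gene is called higher or lower here where its ratio was at least 2, or at most 0.5, in both libraries, among the 8122 genes with at least 100 UMIs over both groups and libraries. By that rule 146 genes (1.8%) were higher and 388 (4.78%) lower, with median log2 ratios over all 8122 of -0.06 and -0.09. The Epyc-zero chondrocytes were shallower, with medians of 2191 and 2401.5 UMIs per cell, and they included such Col1a1-rich cells.

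Of the 6 cartilage collagens other than Col2a1, 5 were higher in the members, with median log2 ratios of 1.37 and 1.11. Col9a2, at 7122 and 9107 CPM against 2363 and 4029, had a ratio of 3.01 and 2.26, and Col11a1, a chain of the collagen XI that seeds the fibril, at 16146 and 16802 against 6684 and 8081, had a ratio of 2.42 and 2.08. Col27a1, at 2708 and 2605 against 1411 and 1523, did not reach 2-fold. All 5 calls were lost when cells with 20 or more Col1a1 UMIs per 10000 were taken out of both groups, an alternative chosen after seeing the data, after which 0 of 6 reached 2-fold and Col9a1 had ratios of 1.90 and 1.96. With Col2a1 of at least 100 per 10000 in both groups, 0 of 6 again reached 2-fold and Col9a1 had a ratio of 1.97 in each library.

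Of 21 other cartilage matrix genes tested, 7 were higher and 3 lower, with median log2 ratios of 0.63 and 0.49, and without Col1a1-rich cells 5 were higher and 3 lower. Besides Matn1 and C1qtnf3, whose ratios were then 5.93 and 4.70, and 7.06 and 6.29, the higher genes included Snorc, a small chondroitin sulfate proteoglycan of the chondrocyte membrane, at 1432 and 1283 CPM against 240.3 and 349, a ratio of 5.96 and 3.67. Matn3, the matrilin of the growth plate, was at 1737 and 1285 against 487 and 533, a ratio of 3.56 and 2.41. Its relative Matn4 was not, at 162 and 166 against 306 and 336, a ratio of 0.529 and 0.493. Scrg1, at 877 and 924 against 251 and 372, had a ratio of 3.50 and 2.48, Cnmd of 2.98 and 2.22, and Acan of 2.49 and 2.05. The calls for Cnmd and Acan were the ones lost without Col1a1-rich cells. The lower genes were Cilp, a protein of the articular cartilage layers, Cytl1, a cytokine-like protein of cartilage, and Vcan, the proteoglycan versican of loose tissue. Cilp was at 1.61 and 1.74 CPM against 272 and 201, and Cytl1 at 331 and 823 against 3065 and 3832, a ratio of 0.108 and 0.215.

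The 5 genes of chondroitin sulfate synthesis and sulfation that were higher, of 21 tested, cover several steps of the chain's assembly, and 1 gene, the sulfotransferase Chst3, was lower. Chst11, which adds sulfate to chondroitin, was at 876 and 684 CPM in the members against 172 and 178, a ratio of 5.08 (4.37 to 5.93) and 3.83 (3.48 to 4.23). Slc26a2, the transporter that brings sulfate into the cell, was at 1208 and 974 against 366 and 407, a ratio of 3.30 and 2.39. Papss2, which makes the activated sulfate donor, was at 896 and 737 against 259 and 355, a ratio of 3.46 and 2.08. Slc35d1, which carries nucleotide sugars into the Golgi and the endoplasmic reticulum, had a ratio of 3.48 and 2.57, and Csgalnact1, which starts the chondroitin chain, of 2.84 and 2.08. The list's median log2 ratios were 0.36 and 0.41, and without Col1a1-rich cells 4 of 18 were higher, all of them among these 5.

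Collagen processing genes differed little as a group, with 2 of 31 higher, none lower and median log2 ratios of 0.25 and 0.16. The 2 were P4ha3, a chain of the prolyl hydroxylase that stabilises the collagen helix, at 140.0 and 127 CPM against 24.5 and 32.5 with a ratio of 5.71 and 3.92, and Plod2, a lysyl hydroxylase, at 1790.3 and 1523 against 645 and 674 with a ratio of 2.78 and 2.26. Of 25 genes of glycolysis and the hypoxia response, none reached 2-fold in both libraries, although their medians were 0.87 and 0.47. Bnip3, a mitophagy receptor induced by low oxygen, had ratios of 3.16 and 1.71.

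All 10 of the other collagens that were tested were lower in the members, with median log2 ratios of -2.68 and -1.82, and 9 of 10 were lower without the Col1a1-rich cells. Col1a1 was at 1113 and 1224 CPM in the members against 32459.6 and 17807, a ratio of 0.0343 (0.0331 to 0.0355) and 0.0687 (0.0666 to 0.0709). Col3a1, of fibrous tissue, was at 752 and 1439.7 against 3526 and 3634, and Col6a2, of the matrix around the cell, at 289.9 and 505 against 2337 and 2663. Of 10 superficial zone and joint genes, 8 were lower, with median log2 ratios of -3.24 and -2.39. Tnc, the matrix protein tenascin-C, was at 56.8 and 62.0 CPM against 638 and 476, and Dkk3 at 13.5 and 18.8 against 156 and 110.0. Prg4, used in the rule, was at 0 in both groups by construction.

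Osteoblast genes were lower in 6 of 7 cases, or in 1 of the 2 that could be tested without Col1a1-rich cells, and their summed level was 1328 and 1323 CPM in the members against 36300.1 and 19375 in Epyc-zero chondrocytes. Ibsp, the bone sialoprotein, was at 90.3 and 10.4 CPM against 3399 and 1296, a ratio of 0.0266 and 0.00804, and Spp1, osteopontin, at 6.45 and 12.2 against 266 and 291. The part of the osteoblast genes in the other differences from Epyc-zero chondrocytes was measured only by the comparison without Col1a1-rich cells, in which 137 genes were higher and 288 lower, and 97 and 221 of these were among those called with all cells. That comparison held fewer cells and tested fewer genes, so its counts are not shares of the same set.

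The genes furthest above Epyc-zero chondrocytes were mostly rare ones. Rspo3, a secreted amplifier of Wnt signalling, was at 48.7 and 37.1 CPM against 3.77 and 1.05, a ratio of 12.9 (4.94 to 48.0) and 35.4 (11.8 to 174), where the Epyc-zero chondrocytes held 4 and 3 UMIs. Rlbp1, a retinaldehyde-binding protein, was at 70.3 and 61.4 against 3.77 and 6.28, a ratio of 18.6 (7.18 to 69.1) and 9.77 (6.03 to 16.8). Fxyd2, the gamma subunit of the sodium pump, was at 35.8 and 43.1 against 0.942 and 1.05, where 1 and 3 UMIs in the Epyc-zero chondrocytes gave ratios of 38.0 (6.68 to 1514) and 41.2 (13.8 to 202). The tetraspanin gene Tspan8 was at 29.3 and 32.1 against 0.942 and 1.75, a ratio of 31.1 (5.45 to 1243) and 18.4 (7.66 to 57.8). Nsg2 had no UMI in the Epyc-zero chondrocytes of either library. Against a level set at 3 UMIs per library it was 10.8-fold and 19.3-fold higher in the members, with lower 95% limits of 8.64 and 15.3. The predicted genes Gm10664 and Gm973, the fatty acid-binding protein gene Fabp7 and the sialyltransferase gene St8sia6 completed the 10, with Matn1.

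Furthest below were Cilp, with a ratio of 0.00592 and 0.00862, and the carbonic anhydrase gene Car3, at 0.645 and 0.579 against 130.1 and 49.6 CPM. Stc1, which encodes the hormone stanniocalcin, was at 10.3 and 16.8 against 456 and 823, a ratio of 0.0226 and 0.0204. Ibsp, Spp1 and Ifitm5, all genes of bone, Col22a1 and Col13a1, minor collagens, and the integrin-related Itgbl1 were also among the 10 lowest.

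**Figure D2:**
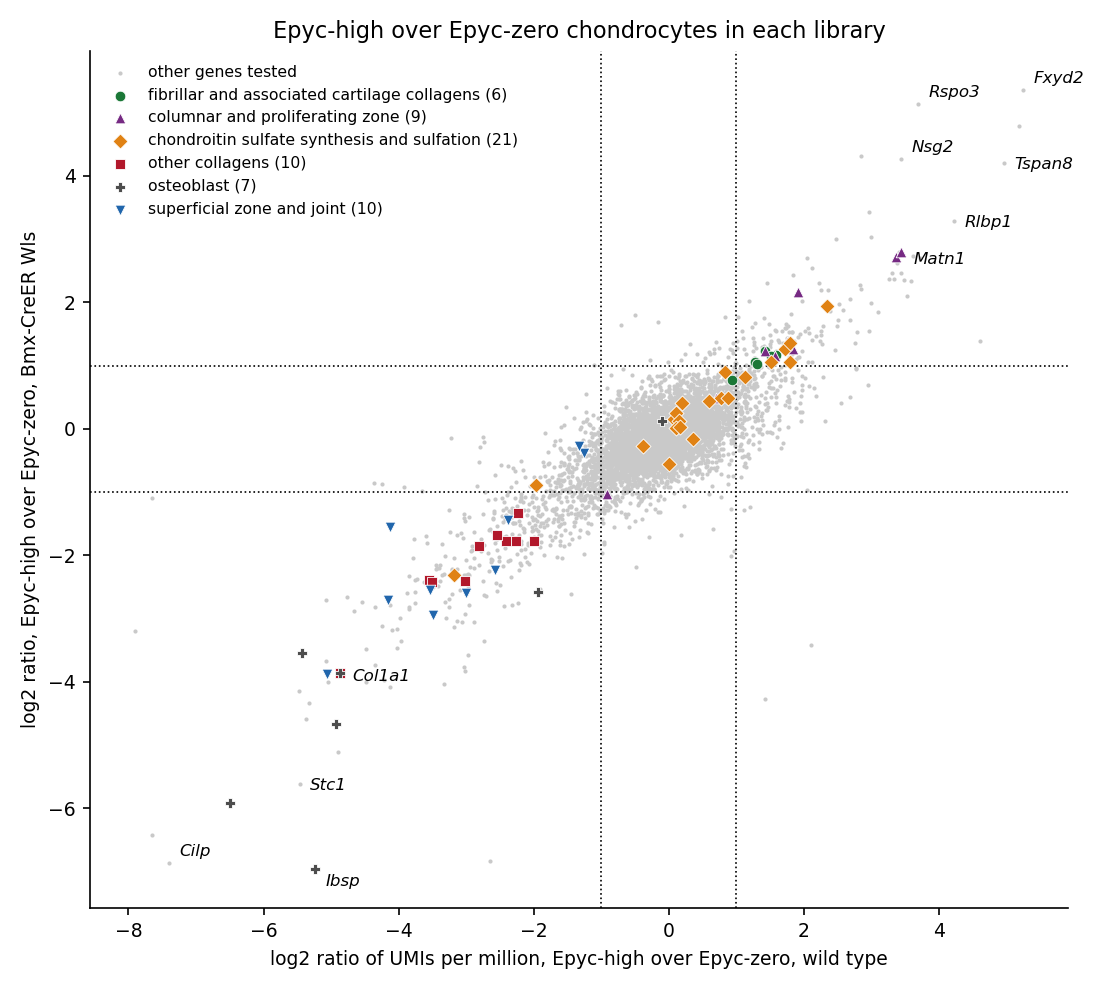
Log2 ratio of the members to Epyc-zero chondrocytes in the Bmx-CreER Wls library (vertical) against the wild-type library (horizontal) for each gene with at least 100 UMIs, with genes of chosen lists coloured and dotted lines at 2-fold. Matn1 and C1qtnf3 lie at ratios of 10.8 and 6.99, and 10.2 and 6.58, and the other collagens lie at the lower left, below 2-fold in both libraries.

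Among 35 chondrocyte transcription factors, 3 were higher than in Epyc-zero chondrocytes and 10 lower, with median log2 ratios of -0.64 and -0.55. The higher ones were Pou3f3, Zbtb20, a zinc finger repressor at 243 and 183 CPM against 86.7 and 72.3 with a ratio of 2.81 and 2.53, and Runx3, a regulator of chondrocyte maturation, at 127 and 103 against 42.4 and 44.7 with a ratio of 3.0 and 2.30. The lower ones included Nfib and Nfia, of the nuclear factor I family, and Osr2, of the joint. Nfib was at 114 and 207 CPM against 488 and 531, a ratio of 0.233 and 0.390, and Barx1, a homeobox gene of joint cartilage, at 4.19 and 21.7 against 57.5 and 73.0. Sox9 differed less, at 2296 and 2318 against 1606 and 1640.4, a ratio of 1.43 and 1.41. Without Col1a1-rich cells 3 of 31 factors were higher, Runx2, Runx3 and Pou3f3, and 10 lower, so the call for Zbtb20 was lost.

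In the signalling lists, Fgfr3, the receptor that slows growth plate division, was at 767 and 598 CPM in the members against 227 and 231, a ratio of 3.38 (2.96 to 3.87) and 2.59 (2.37 to 2.83). Its relatives Fgfr1, at 161 and 282 against 590.0 and 712, and Fgfr2, at 105 and 134 against 251 and 251, had ratios of 0.273 and 0.396 and of 0.419 and 0.534. Nog, which encodes the BMP antagonist noggin, was at 54.2 and 38.8 against 4.71 and 9.08, a ratio of 11.5 (4.83 to 35.9) and 4.27 (2.79 to 6.78). Prkg2, the kinase through which C-type natriuretic peptide acts on growth plates, was at 163 and 90.3 against 44.3 and 41.9, while Npr2, the receptor of that peptide, was at 97.4 and 128 against 268 and 400.4. Of 31 genes of the FGF, BMP, IGF and TGF-beta list 3 were higher and 7 lower, and of 28 Wnt pathway genes 1 was higher and 5 lower. The higher Wnt gene was the ligand Wnt5b, at 61.6 and 24.0 CPM against 14.1 and 11.5, and the lower ones included the Wnt inhibitor Wif1, at 11.9 and 29.2 against 404 and 371, a ratio of 0.0295 and 0.0788.

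Ihh was at 151 and 144 CPM in the members against 35.8 and 50.3 in Epyc-zero chondrocytes, a ratio of 4.21 (3.03 to 6.03) and 2.86 (2.37 to 3.46), but the call was lost on thinning to 2000 UMIs per cell, where the ratios were 1.67 and 1.77. It was seen in 13.9 and 10.8 percent of members. Pth1r was at 232 and 135 against 139 and 120.4, and Ptch1, the hedgehog receptor and itself a hedgehog target, at 21.9 and 10.4 against 7.54 and 6.63. Pthlh was rare in the members, at 9.68 and 9.55 CPM. The hedgehog co-receptors Gas1 and Boc, at 69.3 and 133 against 346 and 316 and at 26.8 and 75 against 122 and 162, were the 2 lower genes of the 14 tested.

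The comparison with Ucma-positive Epyc-zero chondrocytes asked how the members differ from cartilage cells that hold Ucma, a small secreted protein of the upper growth plate, and no Epyc. These were 161 and 357 of the Epyc-zero cells, with at least 2 Ucma UMIs and medians of 2401 and 2560 UMIs. Of 7158 genes tested, 170 (2.37%) were higher in the members and 145 (2.03%) lower, with median log2 ratios of -0.00199 and -0.03. The members held more of the genes of the prehypertrophic zone, 8 of 12 being higher and none lower, with median log2 ratios of 1.58 and 2.13. The members were not gated on Ucma, however, so the groups also differ in that gate. Members with at least 2 Ucma UMIs held Ihh at 63.2 and 32.2 CPM and Panx3 at 412 and 178, below the levels over all members given next. Against all Epyc-zero chondrocytes 2 of 12 were higher and 1 was lower. Without Col1a1-rich cells 6 of 10 were higher there, Ihh, Pth1r, Sp7, Runx2, Runx3 and Panx3, and 0 lower. Over the alternatives that higher count ranged from 0 to 6.

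Panx3, a channel protein of maturing chondrocytes, was at 856 and 592 CPM in the members against 85.9 and 14.5, a ratio of 9.97 (7.12 to 14.4) and 40.7 (24.2 to 74.6). Runx2, a master regulator of hypertrophy and bone, was at 185 and 122 against 25.3 and 18.7, a ratio of 7.33 (3.96 to 15.4) and 6.55 (4.09 to 11.2). Ihh was at 151 and 144 against 22.7 and 2.08, and the 9 and 2 UMIs behind the second pair gave ratios of 6.64 (3.47 to 14.6) and 69.1 (19.0 to 572). Pth1r, at 232 and 135 against 42.9 and 28.0, had a ratio of 5.40 and 4.83, Mef2c, a driver of hypertrophy, of 2.80 and 2.06, and Sp7 of 6.4 and 13.0. The genes that missed 2-fold in 1 or both libraries were Alpl, Ptch1, Foxa2 and Foxa3.

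Smpd3, a sphingomyelinase of the skeleton, led the genes of largest ratio, at 454 and 331 CPM against 25.3 and 13.5, a ratio of 18 (9.74 to 37.6) and 24.5 (14.3 to 46.2). Cd24a, a small surface protein, was at 889 and 565 against 58.1 and 71.7, a ratio of 15.3 (10.2 to 24.2) and 7.89 (6.21 to 10.2), and Lbh, a transcription cofactor, at 249.9 and 171 against 35.4 and 17.7, a ratio of 7.07 (4.19 to 13.0) and 9.71 (6.01 to 16.8). Atf3, a stress-response factor, had ratios of 11.7 (3.95 to 56.9) and 18.2 (6.14 to 89.1), of which the second was 1.92 on thinning, and it was 1 of 4 genes of 12 on the dissociation and stress list that were higher, while none of the 11 tested was higher on thinning. Lyn, Ppif, Pid1 and Lingo1 were the others of these 10, and the call for Lyn, with 1 UMI in each group of Ucma-positive cells, was lost without Col1a1-rich cells.

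The columnar markers were higher in 5 of 9 cases and lower in 1, Matn4. Matn1 was at 13431 and 13210.3 CPM against 2276 and 3187, a ratio of 5.90 (5.52 to 6.31) and 4.14 (4.00 to 4.30), C1qtnf3 had a ratio of 7.08 and 5.61, Fgfr3 of 2.97 and 2.22, Matn3 of 2.45 and 2.16 and Pou3f3 of 2.52 and 3.71. Without Col1a1-rich cells 3 of 9 were higher, the calls for Matn3 and for Pou3f3 (1.84 and 8.43) being lost, and 3 of 9 were also higher on thinning and with cells weighted equally. None of 6 cartilage collagens reached 2-fold, with median log2 ratios of 0.86 and 0.78, and Col9a1 had ratios of 1.72 and 1.73. All 10 of the other collagens were again lower, as were 7 of 8 superficial zone and joint genes, of which 3 could be tested without Col1a1-rich cells and 1, Tnc, was then lower. Itgbl1 was lowest, at 2.26 and 5.79 CPM against 172 and 159.9, and Wif1 stood at 11.9 and 29.2 against 465 and 344. Among the Wnt pathway genes the ligands Wnt4, Wnt5a and Wnt5b were higher, Wnt5b at 61.6 and 24.0 against 10.1 and 5.19, and 5 of 26 genes were lower, or 2 of 24 without Col1a1-rich cells. Tnn, a tenascin of skeletal tissue, Creb5, Adamtsl4, Vwa1, Tnni2, Ltbp1 and Tnc were also among the 10 lowest, with Col1a1.

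Against hypertrophic chondrocytes, the 198 and 205 cells with at least 20 Col10a1 UMIs per 10000, the members held more of the DNA replication genes and less of the genes of mineralising cartilage. The hypertrophic cells, with Col2a1 at 78973 and 71077 CPM against 86157 and 87078 in the members, were deeper, with medians of 6480 and 6869 UMIs. Of 7537 genes tested, 506 (6.71%) were higher in the members and 364 (4.83%) lower, and the median log2 ratios over all genes were 0.13 and 0.09.

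Of 15 S phase genes, 13 were higher in the members and none lower, with median log2 ratios of 1.64 and 2.03. The higher count ranged from 3 to 15 over the alternatives. Both groups were held to a mitotic sum of at most 2 UMIs per cell, a count not scaled to depth. The gate was therefore stricter for the deeper hypertrophic cells, which held Top2a at 3.89 and 2.06 CPM against 19.7 and 18.8 in the members. The part of that gate in the S phase difference was not tested. Mcm6, a subunit of the replicative helicase, was at 69.7 and 83.7 CPM against 27.2 and 24.7, a ratio of 2.56 (1.79 to 3.77) and 3.39 (2.39 to 4.93), and Pcna, the sliding clamp, at 35.5 and 40.5 against 15.5 and 11.7, a ratio of 2.28 (1.41 to 3.88) and 3.48 (2.09 to 6.13). Cdkn1a, which arrests the cycle, ran the other way, at 36.4 and 36.5 against 462 and 495, a ratio of 0.0789 (0.0640 to 0.0967) and 0.0737 (0.0605 to 0.0892), and Cdkn1c was at 3228 and 3091 against 6748 and 6583, a ratio of 0.478 and 0.470.

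The prehypertrophic genes were lower in 7 of 12 cases and the hypertrophic zone genes in 6 of 7, Col10a1 left out. Ihh was at 151 and 144 CPM against 966 and 991, a ratio of 0.156 (0.140 to 0.174) and 0.145 (0.131 to 0.161), and Pth1r at 232 and 135 against 1667 and 1528, a ratio of 0.139 (0.128 to 0.151) and 0.0887 (0.0801 to 0.0980). Panx3 was at 856 and 592 against 2749.8 and 2978, and Alpl, the alkaline phosphatase of mineralising matrix, at 22.9 and 14.2 against 796 and 676. Spp1 came lowest when genes were ranked by the library nearer to 1, at 0.00553 (0.00337 to 0.00858) and 0.0142 (0.0102 to 0.0194). The other 9 at that end were Aldh1a3, B3galt2, Cds1, Ramp1, Phex, Ddit4l, F5, Isg20 and Bmp8a, of which Phex was at 1.29 and 2.03 against 128 and 106 CPM.

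The cartilage collagens did not separate the groups, with none of 6 past 2-fold, and Matn1 had ratios of 1.42 and 1.94. C1qtnf3, at 2738 and 2201 CPM against 443 and 704, and Pou3f3, at 89.0 and 131 against 14 and 13.7, were higher in the members, with ratios of 6.18 (5.68 to 6.74) and 3.13 (2.93 to 3.34) and of 6.36 (3.95 to 10.9) and 9.54 (6.10 to 15.8). Comp and Chad were lower, Comp at 2342 and 2898 against 6316 and 7757. Of 10 small leucine-rich proteoglycans 5 were higher, among them Fmod, fibromodulin, at 1871 and 2854 against 213 and 261, a ratio of 8.78 (7.78 to 9.95) and 10.9 (9.85 to 12.1), and Prelp, at 1180.4 and 968 against 234 and 448. Ucma was at 1448 and 1414 against 68.4 and 41.2, a ratio of 21.2 (17.1 to 26.4) and 34.3 (26.6 to 45.1).

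Of 12 genes of the hedgehog and PTHrP loop, 6 that act on the receiving side of hedgehog signals were higher in the members than in hypertrophic chondrocytes (Gli1, Gli2, Smo, Gas1, Cdon and Boc), and Ihh and Pth1r were lower. Gli1, a transcription factor induced by hedgehog signals, was at 50.3 and 24.0 CPM against 2.33 and 2.74, and the 3 and 4 UMIs of the hypertrophic cells gave ratios of 21.6 (7.25 to 106) and 8.76 (3.29 to 32.9). Gas1 was at 69.3 and 133 against 4.66 and 15.8, Cdon at 67.4 and 121 against 13.2 and 16.5, and Boc at 26.8 and 75 against 1.55 and 2.74. Grem1, a BMP antagonist, was at 58.7 and 132 against 2.33 and 0.686 (3 and 1 UMIs), ratios of 25.2 (8.48 to 123) and 192 (34.4 to 7617). The Wnt antagonist Sfrp1 was at 226 and 311 against 19.4 and 13.7, a ratio of 11.6 (7.80 to 18.1) and 22.7 (14.6 to 37.3). Of 31 transcription factors 9 were higher and 5 lower, Nfib being at 114 and 207 against 5.44 and 17.8 and Mef2c at 213 and 164 against 922 and 834. Complement C4b, the sodium pump subunit Atp1b2, the protease inhibitor Serpina3n, the glutamate receptor subunit Gria3, the Wnt-cleaving protease gene Trabd2b, talin-2 (Tln2), 6330403K07Rik and D17H6S56E-5 led the genes of largest ratio together with Grem1 and Ucma, and Trabd2b stood at 81.0 and 114 against 1.55 and 6.17.

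The cycling Epyc-high chondrocytes, which met every gate but the mitotic one (148 and 156 cells, medians of 4389 and 4272.5 UMIs), had no gene of the cartilage collagen or non-collagen matrix lists past 2-fold from the members in both libraries (0 of 6 and 0 of 20 tested). Of 7334 genes, 69 (0.941%) were higher in the members and 389 (5.3%) lower, with median log2 ratios of -0.02 and -0.01. All 19 mitosis genes tested were lower, which the rule fixes, as were 6 of 16 S phase genes. None of 9 columnar markers, 18 chondroitin sulfate genes and 31 collagen processing genes was past 2-fold in both libraries. Matn1 was at 13431 and 13210.3 CPM against 11620.2 and 10246, a ratio of 1.16 and 1.29, C1qtnf3 at 2738 and 2201 against 2516 and 1677, a ratio of 1.09 and 1.31, and Epyc at 3277 and 2899 against 3080.4 and 2535. Of 12 prehypertrophic genes, 2 were higher in the members, Alpl and Foxa2, and 0 of 10 without Col1a1-rich cells. The mitotic kinase genes Plk1 and Aurka and the cyclin genes Ccnb1 and Ccna2 were among the 10 lowest, Ccna2 at 9.68 and 10.7 against 602 and 737, with Aspm, Gtse1, Ndc80, Nusap1, Kif2c and Troap.

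The genes of largest ratio were led by Ibsp, at 90.3 and 10.4 against 13.7 and 1.35 CPM, but 254 of its 280 wild-type member UMIs came from 1 cell. Slc16a4, a monocarboxylate transporter gene, was at 60.6 and 55.6 CPM in the members against 19.2 and 9.45 in the cycling cells, a ratio of 3.16 (1.84 to 5.89) and 5.88 (2.80 to 14.8). Ehd3, of the endosome recycling proteins, was at 74.2 and 56.5 against 24.7 and 17.6, a ratio of 3.01 (1.86 to 5.17) and 3.22 (1.84 to 6.15), and Cd200, a surface glycoprotein, at 49.7 and 27.8 against 15.1 and 6.75, a ratio of 3.30 (1.79 to 6.74) and 4.12 (1.70 to 13.0). Pdk2, Trim25, Creb3l1, Mettl21b, Mccc1 and 2310045N01Rik were the others, each with fewer than 10 UMIs in the cycling cells of either library.

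The members differed among themselves most in Tmsb4x, Igfbp5, Ly6e and Col1a1, ranked by the library with the smaller value. Over the 4020 genes with at least 100 UMIs in the members of each library, the squared coefficient of variation between cells beyond counting noise had a median of 0.200 and 0.209. It was 32.7 and 22.6 for Tmsb4x, 28.1 and 17.9 for Igfbp5, and 55.3 and 15.6 for Col1a1, of which 1 cell held 28.4% of the wild-type UMIs. The immediate-early genes Egr2, Nr4a2, Atf3 and Dusp1 were among the 10 highest, with Egr2 at 13.3 and 22.7. Ihh, at 6.85 and 10.01, ranked 18th of the 4020 and was the first gene of the growth plate zones in that order, and it was seen in 13.9% and 10.8% of members where an even spread over cells would give 42.9% and 39.9%.

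Ucma, which the rule did not use, split the members. At least 2 Ucma UMIs were found in 62.0% (58.5 to 65.5) and 59.0% (55.7 to 62.2) of members, 1 UMI in 18.3% and 14%, and none in 19.7% (16.9 to 22.7) and 27.0% (24.1 to 30.03). The cells without Ucma were deeper, with medians of 4258.5 and 3555 UMIs against 3266 and 3155. Of 5947 genes, 47 (0.79%) were higher and 38 (0.639%) lower where Ucma was at least 2 than where it was 0, with median log2 ratios of -0.02 and -0.08.

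Genes of the prehypertrophic zone went with the absence of Ucma, 5 of 9 being lower in Ucma-positive members and none higher, with median log2 ratios of -1.28 and -1.51. Ihh stood at 274, 256 and 63.2 CPM in wild-type members with 0, 1 and at least 2 Ucma UMIs, and at 303, 214 and 32.2 in those of the Bmx-CreER Wls library. Panx3 stood at 1579.6, 1264 and 412 in the wild-type library and at 1196, 830.4 and 178 in the other, in the same order of classes. Smpd3 stood at 926, 557 and 222 and, in the other library, at 657, 478 and 103. Each of these 3 genes was lowest where Ucma was at least 2, in both libraries. The ratios of Ucma-positive to Ucma-zero members were 0.231 (0.182 to 0.293) and 0.106 (0.0794 to 0.141) for Ihh, 0.261 (0.238 to 0.287) and 0.149 (0.132 to 0.169) for Panx3 and 0.249 (0.213 to 0.290) and 0.153 (0.124 to 0.188) for Sgms2, which makes sphingomyelin. Pth1r and Mef2c were also lower, with ratios of 0.339 and 0.372 and of 0.411 and 0.257. Grb14, Scube1, Atf3, Cd200, Fxyd2 and Ccdc80 were the other genes among the 10 lowest.

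Grem1 ran the opposite way, at 8.21, 45.6 and 84.3 CPM in wild-type members with 0, 1 and at least 2 Ucma UMIs and at 22.5, 51.2 and 218 in the other library, and its ratio was 10.3 (4.61 to 28.4) and 9.67 (6.41 to 15.3). Boc had a ratio of 2.78 (1.37 to 6.37) and 2.78 (1.96 to 4.03), Nfib of 3.75 and 2.36 and Sfrp1 of 2.10 and 2.30, although Boc fell short of 2-fold (1.67 and 1.92) when cells were averaged with equal weight. Shisa3, which encodes an inhibitor of Wnt and FGF receptors, was absent from Ucma-zero members of the wild-type library, so that it was at least 5.69-fold higher there, and had a ratio of 4.99 (2.86 to 9.40) in the other. Srpx2, at 43.9 and 89.2 against 10.9 and 22.5 CPM, Fras1, Cxcl14, Atad2, Sfrp2, Serpinf1 and Ecm2 made up the 10. Of 14 S phase genes 4 were higher in Ucma-positive members, with median log2 ratios of 1.29 and 0.88, but 0 of 14 with cells weighted equally.

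Of 25 Wnt pathway genes, 4 were lower in Ucma-positive members, the ligands Wnt4, Wnt5a, Wnt5b and Wnt11, and 2, the antagonists Sfrp1 and Sfrp2, higher. The lower count ranged from 1 to 4 and the higher from 1 to 2 over the alternatives. Wnt5b had a ratio of 0.405 (0.289 to 0.568) and 0.280 (0.160 to 0.476) and Wnt4 of 0.376 (0.217 to 0.648) and 0.287 (0.172 to 0.467). The columnar markers and the cartilage collagens did not follow Ucma. None of 9 and none of 6 was past 2-fold, and Matn1 stood at 14100.4, 13454 and 13144 CPM over the 3 classes in the wild-type library and at 12547, 13372 and 13544 in the other.

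**Figure D3:**
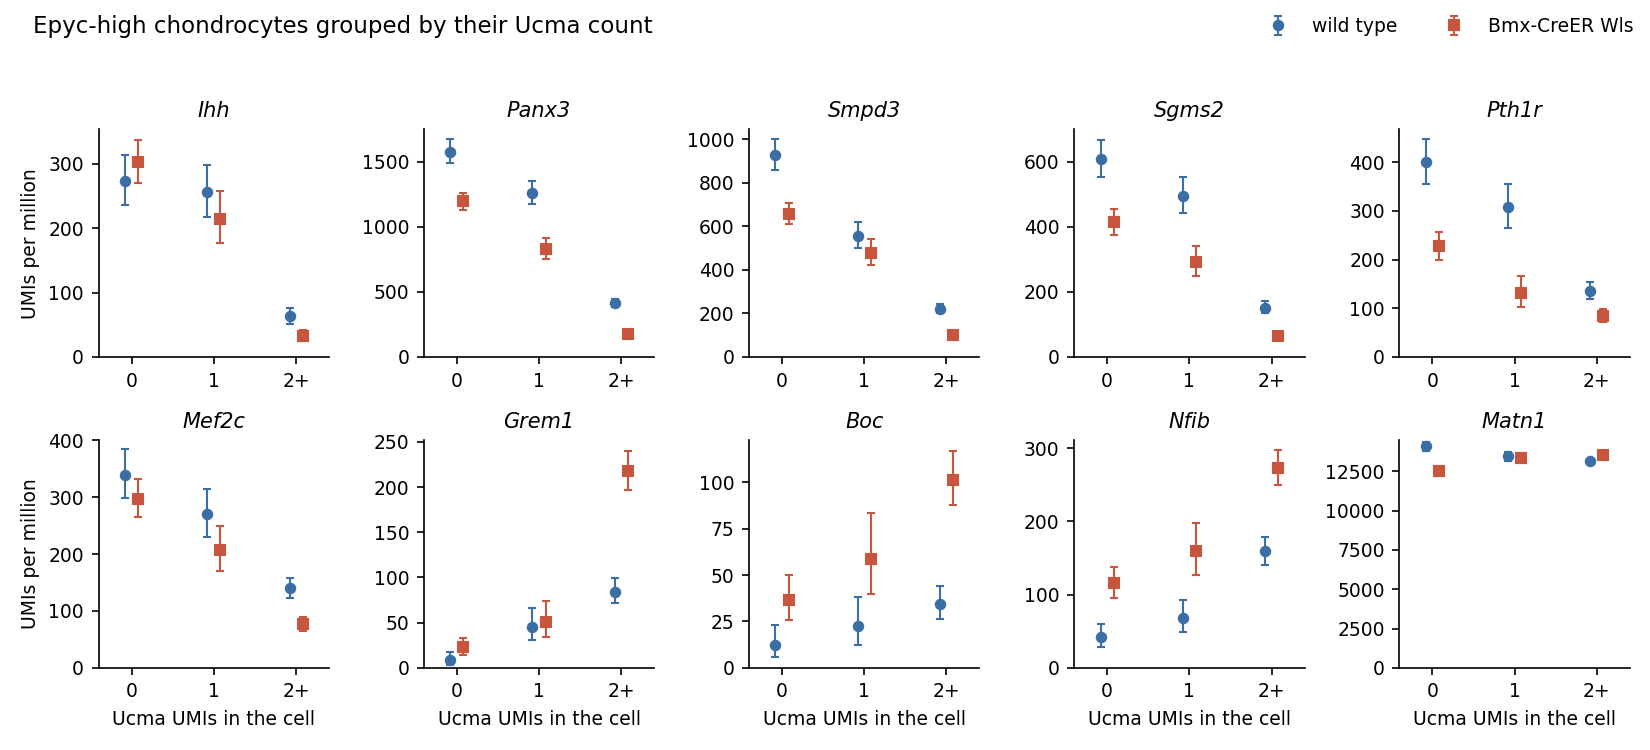
CPM (linear axis) of 10 genes in members with 0, 1 and at least 2 Ucma UMIs in each library, with exact Poisson 95% intervals. Ihh, Panx3, Smpd3, Sgms2, Pth1r and Mef2c are lowest and Grem1, Boc and Nfib highest where Ucma is at least 2, while Matn1 stays between 12547 and 14100.4 CPM.

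A split by Epyc itself ranked the members by their Epyc count after thinning to 2000 UMIs and set the third with most Epyc (238 and 290 cells) against the third with least (296 and 353 cells), and is a description since Epyc chose the cells. The cells low in Epyc were deeper before thinning, with medians of 4184 and 3810 UMIs against 3389 and 3264. Of 5675 genes, 7 (0.123%) were higher where Epyc was high and 84 (1.48%) lower, with median log2 ratios of -0.03 and -0.11. Matn1 had a ratio of 1.38 (1.35 to 1.41) and 1.49 (1.46 to 1.52) and C1qtnf3 of 1.45 and 1.65, and none of 9 columnar markers reached 2-fold. The prehypertrophic genes were lower in 7 of 9 cases, and Ihh was at 37.3 and 28.8 CPM against 242 and 228, a ratio of 0.154 (0.105 to 0.220) and 0.126 (0.0841 to 0.184). Pth1r had a ratio of 0.445 and 0.485, and its call was lost under several other settings, to 0.952 in the Bmx-CreER Wls library when cells were thinned before the gates. Lower too were Pdgfa, the platelet-derived growth factor A chain, at 17.6 and 17.3 against 159 and 231, Loxl4, Fst, Arsi, Maf, Alpl, Tgm2, Col4a1 and Mmp9. Of the Mmp9 UMIs in all members, 5 cells held 97.6% in the wild-type library and 1 cell held 89.4% in the other. The wild-type Col4a1 ratio of 0.190 was 1.02 without Col1a1-rich cells.

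The 7 higher genes were Hspa2, of the HSP70 family, Bhlhe41, a circadian repressor, C4b, Atp1b2, Angpt1, the ligand of the Tie2 receptor, Car9, a carbonic anhydrase induced by low oxygen, and Tube1. Hspa2 was at 63.6 and 43.2 CPM against 22.6 and 15.8, a ratio of 2.82 (1.80 to 4.49) and 2.73 (1.64 to 4.65), and C4b at 49.4 and 196 against 19.7 and 68.3, a ratio of 2.50 (1.53 to 4.16) and 2.87 (2.26 to 3.65). All but Hspa2 lost the call under at least 1 other setting.

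**Figure D4:**
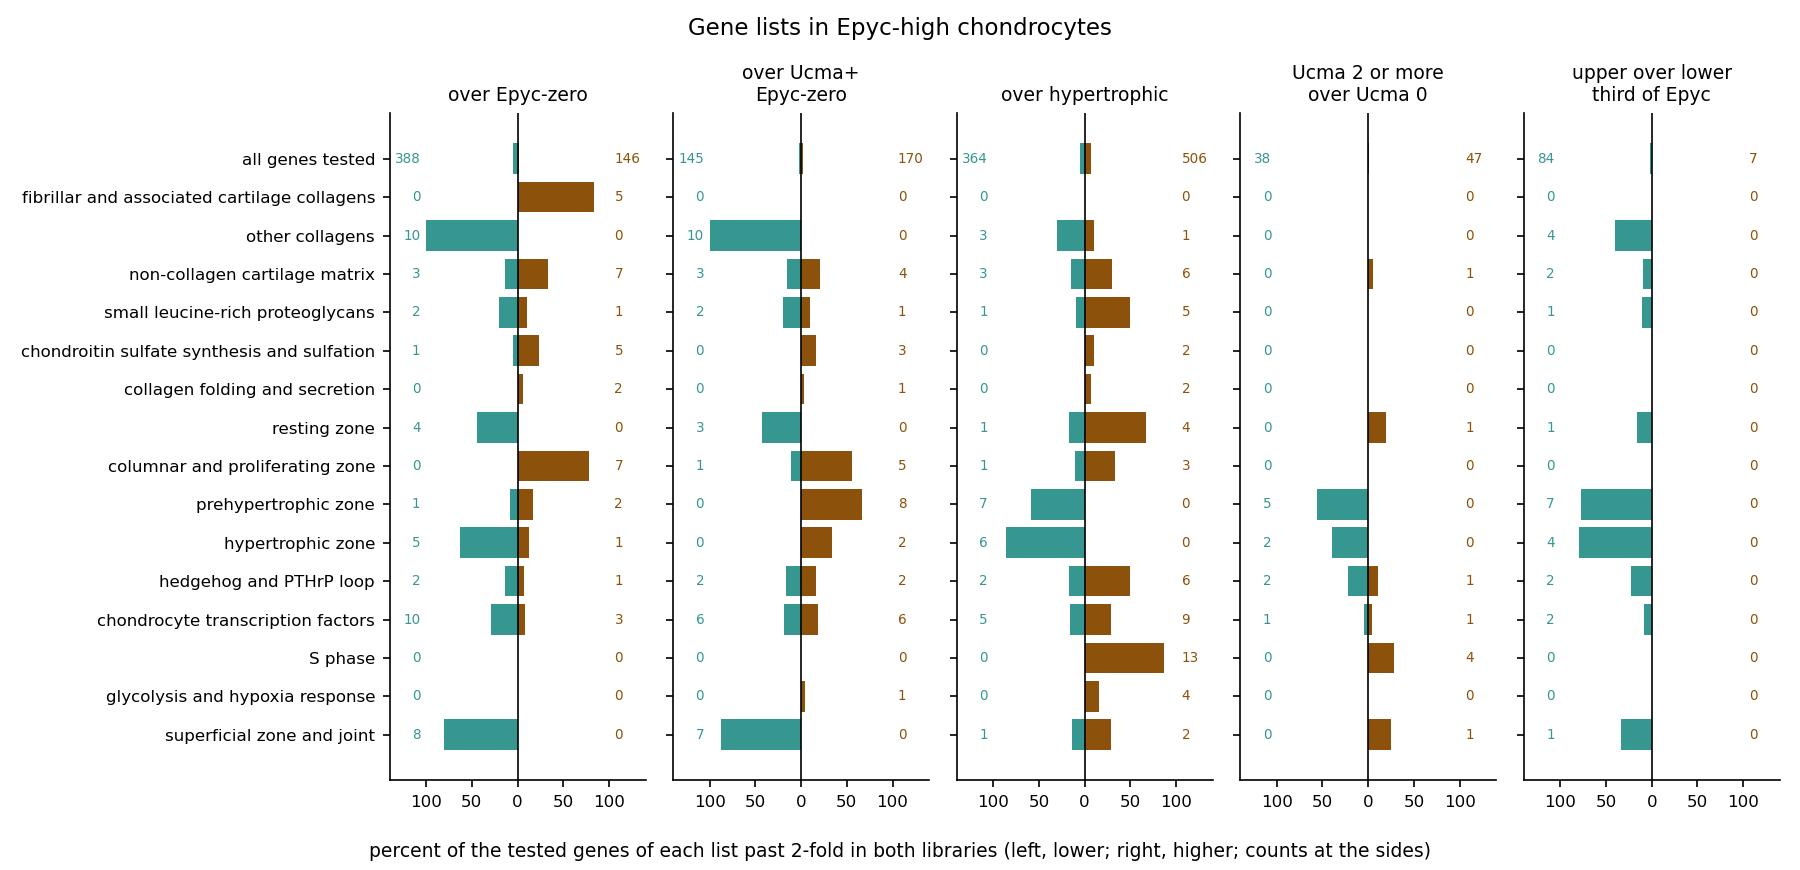
Share (percent) of the tested genes of 15 lists, and of all genes tested, that were past 2-fold in both libraries, higher to the right and lower to the left, with the counts at the sides, for the members over 3 other groups of chondrocytes and for the splits of the members by Ucma and by Epyc. The other collagens were lower than in both kinds of Epyc-zero chondrocytes in 10 of 10 cases, the prehypertrophic genes were higher than in Ucma-positive cells in 8 of 12, and the S phase genes were higher than in hypertrophic cells in 13 of 15.

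RNA of endothelial and blood cells was rare in the members, while genes of the osteoblast, stromal and tendon lists were found in many of them. More than 3 UMIs of the 10 endothelial genes were held by 6 members of each library (0.777% and 0.662%), and of the 10 haematopoietic genes by 11 and 4. Of the osteoblast list, 148 and 174 members (19.2% in each) held more than 3 UMIs, with a sum of up to 1245 and 335 in a single cell, while Dmp1 and Sost were at 0 in both libraries and Bglap2 in the wild type. Stromal fibroblast genes, summed over 10, stood at 1517 and 2409 CPM in the members against 4484 and 4266 in Epyc-zero chondrocytes. The tendon list, at 1908 and 2922 CPM, was almost all Fmod, at 1871 and 2854, and Tnmd and Scx, the tendon's defining genes, were at 1.94 and 8.40 and at 1.29 and 1.16. The 8 osteoclast genes summed to 374 and 92.1 CPM, and 1 wild-type cell held 396 of these UMIs. More than 3 UMIs of the S phase list were held by 19.2% and 21.5% of members, although the rule kept out cells with a mitotic sum above 2.

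Between the libraries, the cartilage collagens and columnar markers of the members differed by less than 1.5-fold, while other collagens and genes of hedgehog signalling and stress were past it. Of 6532 genes with at least 100 UMIs over both, 280 (4.29%) were at least 1.5-fold higher in the Bmx-CreER Wls library and 180 (2.76%) at least 1.5-fold lower, with a median log2 ratio of -0.03. Of these, 27.5% and 20.6% were past 1.5-fold in the same direction in Epyc-zero chondrocytes, and 33.2% and 18.3% in all other kept cells. The share of all 6532 genes past 1.5-fold in those cells was not computed, so these shares cannot be set against it. None of 9 columnar markers, 18 chondroitin sulfate genes and 31 collagen processing genes was past 1.5-fold. Matn1 had a ratio of 0.984 (0.971 to 0.997), Col9a1 of 0.977 (0.966 to 0.988), Acan of 1.06 (1.04 to 1.08), Sox9 of 1.01 (0.978 to 1.04), Ucma of 0.976 (0.937 to 1.02) and Ihh of 0.951 (0.837 to 1.08). C1qtnf3 was lower in the Bmx-CreER Wls library, at 0.804 (0.779 to 0.829), and Pou3f3 higher, at 1.47 (1.26 to 1.71), both short of 1.5-fold. Xist, the RNA of the inactive X chromosome, was at 95.8 and 272 CPM in the members and was seen in 19.9 and 54.7 percent of them, and it stood at 58.9 and 267 CPM in all other kept cells, so that the libraries stood apart in it. Its part in the other differences between the libraries was not tested.

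The other collagens were higher in the Bmx-CreER Wls members in 6 of 10 cases and lower in none, with a median log2 ratio of 0.61, and 3 of 10 were higher with an Epyc gate of 1 or of 4 UMIs. Col3a1 was at 752 and 1439.7 CPM, a ratio of 1.91 (1.82 to 2.01), and Col6a2 at 289.9 and 505, a ratio of 1.74 (1.61 to 1.89). In all other kept cells Col3a1 had a ratio of 0.814 and Col6a2 of 1.49. Dcn, the proteoglycan decorin, was at 212 and 426, a ratio of 2.01 (1.84 to 2.21) against 0.518 in the other kept cells, and Cytl1 at 331 and 823, a ratio of 2.49 (2.32 to 2.68) against 2.13. Nfia, Nfib, Pitx1, Tbx5 and Foxp1 were the 5 of 26 transcription factors that were higher, Nfib with a ratio of 1.82 (1.6 to 2.07), and Runx2 was the 1 that was lower, at 185 and 122 CPM with a ratio of 0.662 (0.582 to 0.751). The call for Runx2 was lost without Col1a1-rich cells, with an Epyc gate of 4 UMIs and under median of ratios scaling.

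The hedgehog list held members on both sides, 4 of 10 higher and 3 lower in the Bmx-CreER Wls library. The co-receptors Boc, Gas1 and Cdon and the transcription factor Gli2 were higher, Boc at 26.8 and 75 CPM with a ratio of 2.80 (2.18 to 3.63), Gas1 at 1.91 (1.62 to 2.26) and Cdon at 1.80 (1.52 to 2.13). The targets Ptch1 and Gli1 were lower, Ptch1 at 21.9 and 10.4 CPM with a ratio of 0.475 (0.308 to 0.722) and Gli1 at 50.3 and 24.0 with a ratio of 0.478 (0.361 to 0.627). Pth1r was at 232 and 135, a ratio of 0.584 (0.519 to 0.657), and it was among the 4 of 11 prehypertrophic genes that were lower, with Runx2, Alpl and Ptch1. Without Col1a1-rich cells, and with an Epyc gate of 4 UMIs, 1 of 9 was lower, Pth1r. In the other kept cells Ptch1 had a ratio of 0.755, Gli1 of 0.907, Pth1r of 0.928 and Boc of 2.02.

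Among Wnt pathway genes, 7 of 26 were higher and 3 lower in the Bmx-CreER Wls members. Wnt5b was at 61.6 and 24.0 CPM, a ratio of 0.390 (0.298 to 0.507) against 0.859 in the other kept cells. Ctnnb1, which encodes beta-catenin, was at 152 and 83.4, a ratio of 0.549 (0.472 to 0.637) against 0.712. Sfrp5, a secreted Wnt antagonist, was at 47.1 and 16.8, a ratio of 0.357 (0.258 to 0.487), and went the other way in the other kept cells, at 4.21. Wif1 was at 11.9 and 29.2, a ratio of 2.45 (1.67 to 3.67), and the receptor genes Fzd8, Fzd2, Lrp5 and Ror2 had ratios from 1.52 to 1.73. In the FGF, BMP, IGF and TGF-beta list 8 of 30 were higher, led by Igfbp5, and 1, Prkg2, was lower, at 163 and 90.3 CPM with a ratio of 0.555 (0.480 to 0.640).

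Cxcl12, a chemokine of marrow stroma, had the largest ratio between the libraries, 5.01 (3.05 to 8.65), on 19 and 106 UMIs. It was seen in 2.20% and 4.52% of members. In the Bmx-CreER Wls library 1 cell held 21.7% of its UMIs and 5 cells held 54.7%. The ratio of Cxcl12 was 0.440 in Epyc-zero chondrocytes and 0.631 in the other kept cells. Serpina3n was at 26.4 and 105 CPM, a ratio of 3.98 (3.13 to 5.13), with 3.77 in Epyc-zero chondrocytes and 4.46 in the other kept cells, so it was higher in all 3. C4b had a ratio of 3.69 (2.93 to 4.68), and Car9 of 3.09 (2.38 to 4.05), each also over 1.5 in both other groups of cells. Osmr, the oncostatin M receptor, was seen in 2.98% and 9.04% of members, a ratio of 3.44 (2.18 to 5.64). Igfbp5, an IGF-binding protein, was at 180.0 and 535 CPM, a ratio of 2.97 (2.7 to 3.28), and 1 cell held 13.0% of its UMIs in the Bmx-CreER Wls library. Nr4a1, an immediate-early gene, was at 99.3 and 297, a ratio of 2.99 (2.63 to 3.40). Gadd45a, Shisa3 and Snord13 were the others of the 10 highest, and 5 cells held 57.0% of the Gadd45a UMIs in the Bmx-CreER Wls library.

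At the other end, Mmp9 and Ctsk, proteinases of osteoclasts, and Ibsp had ratios of 0.114, 0.201 and 0.115, but single wild-type cells held 55.0%, 47.9% and 90.7% of their UMIs, and without cells holding more than 3 UMIs of the osteoclast list the ratio of Ctsk was 0.887. Il17b, a cytokine gene, was at 34.5 and 6.95 CPM, a ratio of 0.201 (0.124 to 0.316), was seen in 9.07% and 1.76% of members, and had a ratio of 0.173 in the other kept cells. Nos1, a nitric oxide synthase gene, was at 29.3 and 10.7, a ratio of 0.365 (0.242 to 0.540). The heat shock gene Hspa1a was at 113 and 41.7, a ratio of 0.369 (0.302 to 0.450) against 1.06 in the other kept cells. Of 12 dissociation and stress genes 4 were lower and 1, Junb, was higher, at 169 and 412 with a ratio of 2.44 (2.21 to 2.71), and their part in the other differences was not tested. Chac1, Sfrp5 and Wnt5b were also among the 10 lowest. The glycolytic genes Pgk1 and Eno1 had ratios of 0.484 (0.419 to 0.557) and 0.538 (0.497 to 0.582), while Gapdh had 0.961 (0.901 to 1.03).

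**Figure D5:**
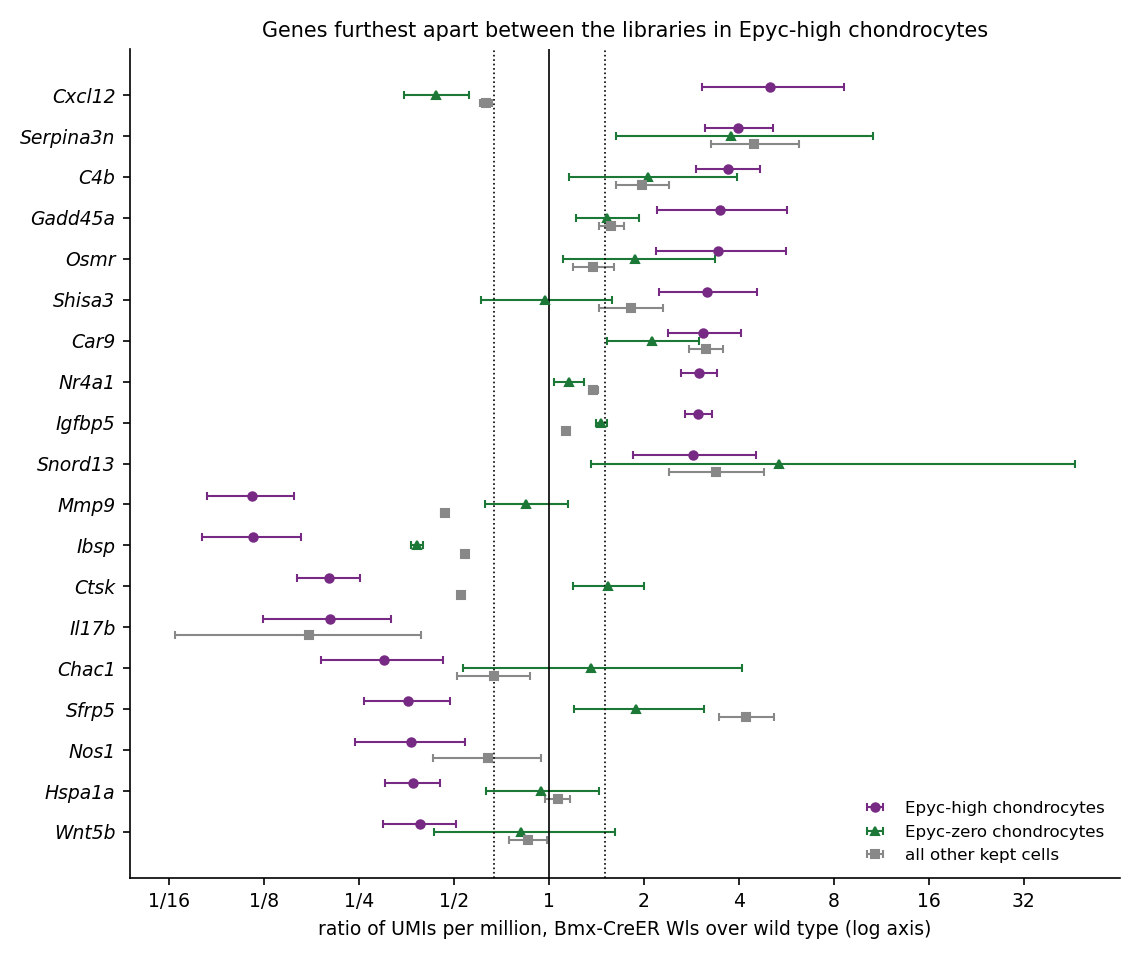
Ratio of the Bmx-CreER Wls to the wild-type library (log axis) for the genes named here from the 10 largest and the 10 smallest ratios within the members, with exact 95% intervals, beside the ratio of the same genes in Epyc-zero chondrocytes and in all other kept cells. Serpina3n, C4b and Car9 lie above 1.5 in all 3 groups of cells, while Cxcl12 lies at 5.01 in the members and at 0.440 and 0.631 in the others.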

How the data were processed

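Single-cell RNA-seq (BD Rhapsody, whole transcriptome) was performed on 2 libraries, 1 per genotype. Per the labels and the study's methods, the authors demultiplexed reads with bcl2fastq 2.19.1.403, extracted barcodes with UMI-tools 1.0.1, aligned to mm10 with STAR 2.7.1a and assigned reads to genes with featureCounts 1.6.4, and deposited raw UMI counts per gene and cell. The setting for strand was not given in the sources used here. From those counts, a cell was kept with 201 to 4999 detected genes and mitochondrial transcripts below 30%, the gates were applied to the counts of each cell, and UMIs were summed per group and library. Levels are CPM with exact Poisson 95% intervals, shares have Clopper-Pearson intervals, and ratios have exact conditional binomial intervals. All of them cover counting error only. A count of 0 was set to a floor of 3 UMIs per library for calls and rankings. Genes were compared where both groups and both libraries held at least 100 UMIs together, at 2-fold in both libraries, or 1.5-fold between the libraries. Cells were thinned to 2000 UMIs (seed 1) where shares were set across depths. No doublet caller was run and doublets were kept, with alternatives that remove mixed or deep cells. Depth per library was 22708005 and 24704991 UMIs.

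The members, the 31 gene lists (454 genes) and the comparisons were chosen with earlier results of these data known. Genes were named by rule: the genes of the gates and the given markers, list members of high level or large ratio, and the 10 highest and 10 lowest ratios of each comparison (ranked by the library nearer to 1). The rankings left out mitochondrial, haemoglobin and Y-linked genes, Xist and the genes of the gates. Other X-linked genes were kept. The comparison by Ucma and the genes named in it were chosen after its values were seen, as were Acp5, Xist and some further list genes named as contrasts. A few genes that met the rule are not reported here. Clusters were not computed and the study's own cell labels were not used. Exon overlap was looked up for 141 genes, the markers of the label, Col2a1 and the genes of the rankings. Of these, 44 share exon bases with another gene, 40 of them with a gene on the other strand, so their counts are uncertain. Genes named only from the lists were not looked up. Analyses used Python 3.11.15, numpy 2.4.6, scipy 1.17.1, pandas 2.3.3 and matplotlib 3.10.9, and the code was tested on simulated data.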

Additional observations from a re-analysis of the deposited data

Results flagged for a closer look

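Acp5, the tartrate-resistant acid phosphatase of osteoclasts, moved in opposite directions in the 2 libraries when the Epyc-high chondrocytes were set against Epyc-zero chondrocytes, and it was singled out for that reason. Its ratio was 4.30 in the wild-type library and 0.0939 in the Bmx-CreER Wls library. The members of the wild-type library held 88 UMIs, of which 45 (51.1%) lay in 1 cell and all lay in 5 cells, and those of the Bmx-CreER Wls library held 6 UMIs in 6 cells. With 1 library per genotype the difference between the libraries was not tested.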

How the results depend on the processing

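Across 15 alternatives, 3 of them chosen after seeing the data, 133 of 170 counts and shares stayed within 1.5 times or the interval of the reported value and 37 moved. The share of kept cells became 14.7% and 15.7% with 1 Epyc UMI, 12.2% and 11.3% with 4, 14.9% in the wild-type library on thinning to 2000 UMIs, 18.7% and 16.5% without cells holding over 3 endothelial and haematopoietic UMIs, and 12.4% and 12.2% with Col1a1 under 20 per 10000 (chosen after seeing the data). On thinning, 80 genes were higher than in Epyc-zero, 316 higher and 235 lower than in hypertrophic, 76 and 83 than in Ucma-positive and 114 and 166 than in cycling cells (13 of the 114 being among the 69 found without thinning), and 153 were higher in the Bmx-CreER Wls library. A minimum of 30 UMIs gave 710 lower than in Epyc-zero, 851 higher and 548 lower than in hypertrophic, 283 lower than in Ucma-positive, 173 higher and 633 lower than in cycling cells, and 705 higher and 514 lower between the libraries. A minimum of 300 gave 86 and 195, 225 and 207, 85 and 61, 16 and 134, and 91 and 52 in the same order. With Col2a1 of at least 100 per 10000, 252 were lower than in Epyc-zero cells, and with cells weighted equally 107 were higher than in cycling cells. For the counts on thinning and these last 2 the cause was not tested. The number of genes tested changed with the cells and the minimum used, so these counts cannot be compared as shares of the same set. Of 4645 ratios of named genes, 98 lost the call and 1 reversed, the wild-type Col4a1 ratio between high and low Epyc, at 1.02 with Col1a1 under 20 per 10000. No paired analysis was possible because each genotype has 1 library. Depth limits rare genes: with under 4 UMIs in a group the ratio spans over an order of magnitude.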
